A study of Mus musculus with 18 samples.

Results

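The expression of 8 genes that are known from fat cells was followed in 18 lung metastases. The genes were Adipoq, Plin1, Plin4, Cidec, Cfd, Cyp2e1, Fabp4 and Mlxipl, out of 49585 gene identifiers in the count table. They were selected on earlier results of these same data, in which fat cell genes were seen with most counts in a single lesion. Their values, the p-values of a later fit included, are therefore a description and no test of them. All 8 were found in the table, and 26158 identifiers had a count in any lesion.

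Each sample was 1 metastatic lesion cut by laser from a frozen lung section. The tumours came from AT3, a mouse mammary carcinoma line carrying GFP and mCherry, which was put into the mammary fat pad and spread to the lung without further handling. NK lesions came from mice given 60000 mouse NK cells, activated in culture, by vein on day 11 (mouse NK1 with 3 lesions and NK2 with 4). Ctrl lesions came from mice given PBS, whose titles begin with KO (KO1 with 5, KO2 with 4 and KO3 with 2). All mice carried the same immune-deficient background, Rag2-/-IL2rg-/- in the strain label and Rag1-/-IL2rg-/- in the growth protocol, so the Ctrl hosts lacked T, B and NK cells as well. The labels give no age for the mice. Lesions of 1 mouse are not independent, so the replicate of a treatment is the mouse, with 2 NK mice and 3 Ctrl mice.

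White fat cells store triglyceride in a single large droplet whose surface is covered by perilipins, and release fatty acids from it on hormonal demand. They also act as a gland, secreting adiponectin, leptin, resistin and the complement protease adipsin. The program that sets up the cell is driven by PPARG together with proteins of the C/EBP family. They are not a regular cell of the alveolar wall.

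Total counts per library were 2964242 to 11798897 in NK lesions and 5690467 to 9816244 in Ctrl lesions. Between 13.7% and 65.3% of the counts in NK lesions, and 12.1% to 68.7% in Ctrl lesions, came from mt-Rnr2, a ribosomal RNA of mitochondria. The lesion on which the results turn, NK1-1, had 8359080 counts, 47.6% of them from mt-Rnr2, and a count for 17278 genes. Lesion values are CPM, the counts of a gene per 1000000 counts of its library, with library totals scaled by the TMM factors of edgeR. Intervals are exact Poisson or Clopper-Pearson intervals at 95% and cover counting error only, and there is 1 library per lesion. Captured tissue is a mixture, so fewer fat cells and less RNA per fat cell cannot be told apart.

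The promoters of 4 of the genes are shown because Adipoq, Plin1 and Cfd had counts in 1 lesion alone, and because Cyp2e1, a gene better known from liver, followed them. Each is 300 bases of the coding strand, from 250 before the start site to 50 from it on, taken from RefSeq on GRCm38.p6. Capitals mark matches to any of 5 short motifs searched on both strands. They were the TATA box TATAAA, the box CCAAT, the nuclear receptor core site AGGTCA, the E-box CACGTG and the C/EBP type TTGCNNAA.
Adipoq, chr16:23146286-23146585, plus strand: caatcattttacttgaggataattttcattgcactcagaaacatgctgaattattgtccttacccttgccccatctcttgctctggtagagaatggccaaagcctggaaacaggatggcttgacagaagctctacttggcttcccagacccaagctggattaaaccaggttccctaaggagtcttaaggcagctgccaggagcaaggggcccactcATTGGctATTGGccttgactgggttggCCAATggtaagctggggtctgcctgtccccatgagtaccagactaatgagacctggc
Plin1, chr7:79732727-79733026, minus strand: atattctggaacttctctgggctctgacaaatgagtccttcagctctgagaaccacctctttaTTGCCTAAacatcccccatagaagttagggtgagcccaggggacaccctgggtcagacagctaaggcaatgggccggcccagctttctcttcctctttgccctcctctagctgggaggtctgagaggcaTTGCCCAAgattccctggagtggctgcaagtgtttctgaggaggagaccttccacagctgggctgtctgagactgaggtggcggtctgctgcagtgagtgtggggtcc
Cfd, chr10:79890603-79890902, plus strand: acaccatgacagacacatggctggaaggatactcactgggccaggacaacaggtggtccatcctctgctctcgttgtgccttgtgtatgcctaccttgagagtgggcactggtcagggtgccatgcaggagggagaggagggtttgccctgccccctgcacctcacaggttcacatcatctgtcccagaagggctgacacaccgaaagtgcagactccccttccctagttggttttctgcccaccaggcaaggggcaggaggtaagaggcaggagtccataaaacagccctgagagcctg
Cyp2e1, chr7:140763569-140763868, plus strand: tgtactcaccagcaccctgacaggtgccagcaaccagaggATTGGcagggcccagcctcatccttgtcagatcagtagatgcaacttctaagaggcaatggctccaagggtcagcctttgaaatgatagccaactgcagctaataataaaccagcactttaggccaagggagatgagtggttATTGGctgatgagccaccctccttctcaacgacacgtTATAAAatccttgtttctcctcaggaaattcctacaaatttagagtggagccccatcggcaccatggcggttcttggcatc

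Adipoq held 3 CCAAT matches, which began 34, 27 and 7 bases before the start. Plin1 held 2 matches of the C/EBP type, 187 and 58 bases before it. Cfd held a match to none of the 5 motifs. Cyp2e1 held 2 CCAAT matches, 210 and 68 bases before the start, and a TATAAA match 31 bases before it. RefSeq entries were found for 7 of the 8 genes, 9 start sites in all. Of these 9 start sites 4 held CCAAT, 2 the C/EBP type, 1 TATAAA, 1 CACGTG and 0 AGGTCA, each in a different gene for a given motif. Among all 32851 promoters of this length, 37.4% held CCAAT, 10.8% the C/EBP type, 13.6% TATAAA, 7.15% CACGTG and 16.3% AGGTCA. The CACGTG match was in Mlxipl, 98 bases before its first start site. No motif of the 5 was thus held by all 7 genes in this window. Any bearing of the motifs on the lesion described next was not tested.

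All 8 genes were highest in lesion NK1-1, where they summed to 1898 CPM (11985 counts, 0.143% of the library). The same sum was 2.05 to 7.18 CPM in the 6 other NK lesions and 0.115 to 11.1 CPM in the 11 Ctrl lesions. For 7 of the 8 genes, NK1-1 held at least 80% of the CPM summed over the 18 lesions. Over all 18280 genes with 20 or more counts, 0.492% were held by NK1-1 to that extent and 12.6% were highest there. Since the genes were chosen for this pattern, nothing is read from their share against that background.

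**Figure D1:**
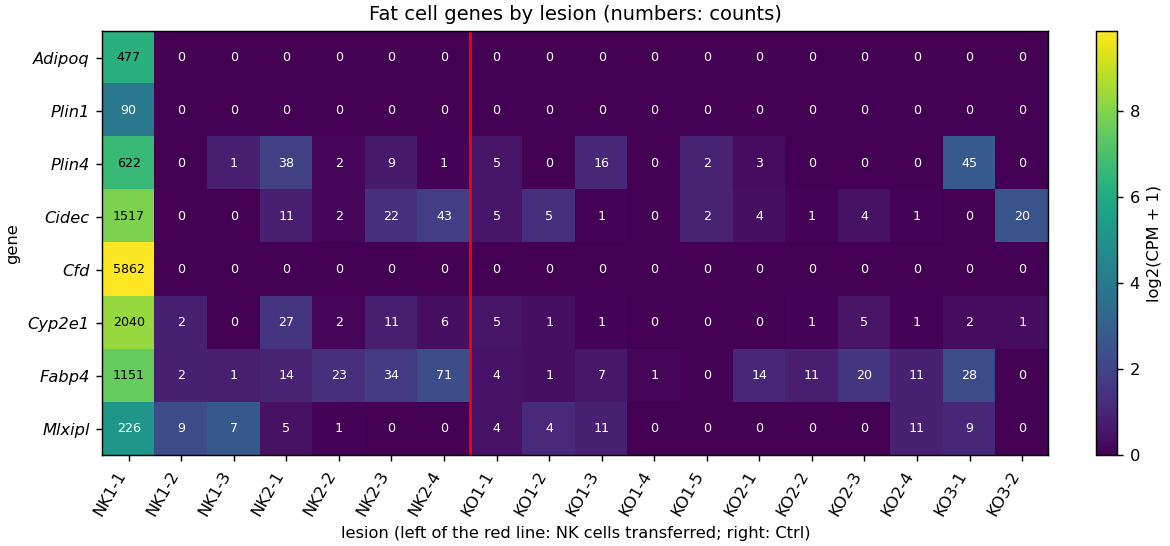
Counts (printed in each cell) and log2(CPM + 1) (colour) of the 8 fat cell genes (rows) in each of the 18 lesions (columns), with the NK lesions left of the red line and the Ctrl lesions right of it. The column of NK1-1 holds between 90 counts (Plin1) and 5862 counts (Cfd), while no other cell is above 71 counts.

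Of the secreted products, Adipoq (ENSMUSG00000022878.5, chromosome 16, 23146536 to 23158028, plus strand, GRCm38) encodes adiponectin, a hormone made almost only by fat cells. It had 477 counts (75.5 CPM) in NK1-1, 0 counts in the 6 other NK lesions and 0 counts in the 11 Ctrl lesions. Cfd (ENSMUSG00000061780.5, chromosome 10, 79890853 to 79892655, plus strand) encodes adipsin, the protease that opens the alternative complement pathway. It had 5862 counts (928 CPM) in NK1-1 and 0 counts in each of the 17 other lesions, whether with NK cells or Ctrl. Taking the floor of 3 counts over the 17 lesions together, NK1-1 was at least 4110-fold higher for Adipoq and at least 50510-fold higher for Cfd.

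Of the droplet coat proteins, Plin1 (ENSMUSG00000030546.14, chromosome 7, 79720218 to 79732903, minus strand) encodes perilipin 1, which guards the droplet against lipases. It had 90 counts (14.3 CPM) in NK1-1 and 0 in the 17 others, at least a 775.5-fold difference by the same floor. Cidec (ENSMUSG00000030278.11, chromosome 6, 113424634 to 113435760, minus strand) encodes a protein that fuses small droplets into large ones. It had 1517 of its 1638 counts in NK1-1, or 92.6% (91.2% to 93.8%), at 240 CPM. The 6 other NK lesions held 0 to 2.42 CPM of Cidec, and the Ctrl lesions 0 to 4.87 CPM with a median of 0.337. Plin4 (ENSMUSG00000002831.13, chromosome 17, 56100591 to 56109803, minus strand) encodes a perilipin that coats nascent droplets. It had 622 of 744 counts in NK1-1, or 83.6% (80.7% to 86.2%), at 98.5 CPM, with 0 to 2.67 CPM in the 6 other NK lesions and 0 to 5.97 CPM in Ctrl lesions. NK1-1 lay above every other lesion for each of the 3 droplet genes, by 324-fold (269 to 393) for Cidec and 131.8-fold (108 to 161) for Plin4 over the 17 others pooled. Plin4 overlaps Hdgfl2 on the opposite strand and the labels do not say how strand was treated in counting, so reads of the pair might not be separable. Hdgfl2 had 8.08 CPM in NK1-1, against a median of 14.3 and a maximum of 66.5 CPM in the others. Whether reads of the pair were mixed was not tested.

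Fabp4 (ENSMUSG00000062515.3, chromosome 3, 10204088 to 10208576, minus strand) encodes the fatty acid carrier of the fat cell cytosol, which macrophages and capillary endothelium also make. It had 1151 of 1393 counts in NK1-1, or 82.6% (80.5% to 84.6%), at 182 CPM. The 6 other NK lesions held 0.798 to 3.99 CPM of Fabp4, and the Ctrl lesions 0 to 3.71 CPM with a median of 0.536. It was the most widely detected of the 8, with a count in 15 of the 17 other lesions. The ratio of NK1-1 to those 17 pooled was 123 (107 to 142).

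Of the metabolic genes, Cyp2e1 (ENSMUSG00000025479.9, chromosome 7, 140763739 to 140774987, plus strand) encodes a cytochrome P450 that oxidises ethanol and acetone and is abundant in liver and also made by fat. It had 2040 of 2105 counts in NK1-1, or 96.9% (96.1% to 97.6%), at 323 CPM. It stayed at 0 to 1.89 CPM in the 6 other NK lesions and at 0 to 0.476 CPM in Ctrl lesions, giving a ratio of 811 (634 to 1055) over the 17 pooled. Each of the 10 hepatocyte markers examined, albumin (Alb) among them, had 0 counts in NK1-1. Their sum was also near 0 elsewhere, at 0 to 0.956 CPM in the 6 other NK lesions and 0 to 2.53 CPM in Ctrl lesions. These markers thus do not set NK1-1 apart, and a liver source was not tested. Mlxipl (ENSMUSG00000005373.13, chromosome 5, 135089890 to 135138382, plus strand) encodes ChREBP, the transcription factor that turns on fat synthesis in response to sugar. It had 226 of 287 counts in NK1-1, or 78.8% (73.6% to 83.3%), at 35.8 CPM. Mlxipl was the least exclusive of the 8, since its share of CPM there was 71.4% and the other lesions of the same mouse came next, NK1-3 at 5.58 CPM (7 counts) and NK1-2 at 3.75 CPM (9 counts). The Ctrl lesions held 0 to 1.25 CPM of Mlxipl, and the ratio of NK1-1 over the 17 pooled was 95.8 (71.9 to 129). Its antisense neighbour Gm43500 had 1 count in all lesions.

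Set per kilobase of the longest coding transcript, so that genes can be compared, Cfd led in NK1-1 with 6358 counts per kilobase (6196 to 6523). Fabp4 followed with 1285 (1211 to 1361), Cyp2e1 with 1113 (1065 to 1162) and Cidec with 882 (838 to 927.5). Adipoq had 369 (337 to 404), Plin4 108.1 (99.7 to 116.9), Mlxipl 62.4 (54.5 to 71.1) and Plin1 31.9 (25.7 to 39.3) counts per kilobase. No 2 neighbours in this order had overlapping counting intervals, which do not cover the spread between lesions. The transcript for adipsin was thus the most abundant of the 8 in this 1 library.

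**Figure D2:**
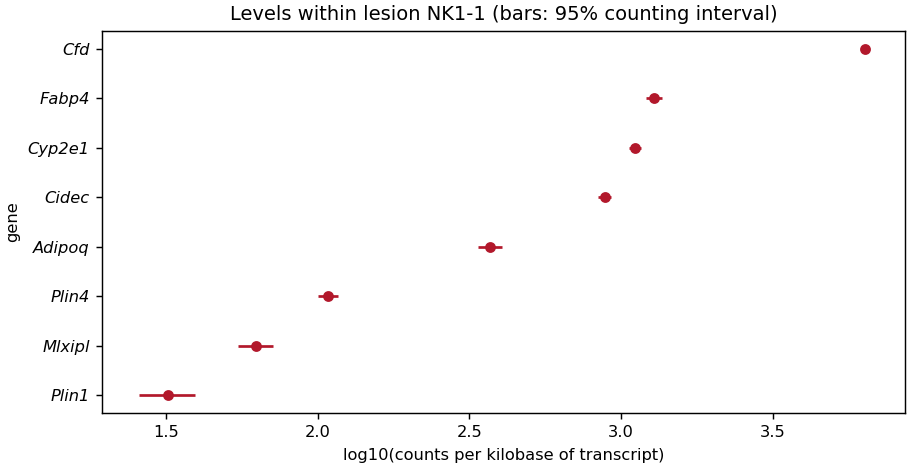
Counts per kilobase of transcript on a log10 scale in lesion NK1-1 for the 8 genes, one point per gene with its 95% counting interval. Cfd lies at 6358 and Plin1 at 31.9 counts per kilobase.

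Other genes of the fat cell were read from 7 lists of 88 genes that leave out the 8. Of the 78 with 20 or more counts, 9 had at least 80% of their CPM in NK1-1 and 30 were highest there, beside 0.492% and 12.6% over all genes. Car3, a carbonic anhydrase abundant in fat and muscle, had 4196 of 4225 counts there (664 CPM). Retn, the hormone resistin of mouse fat, had 1545 of 1599 counts (245 CPM), and at most 3.37 CPM in any other lesion. Thrsp, which promotes fat synthesis, had 586 of 630 counts, and Adrb3, the adrenergic receptor that triggers lipolysis, had 638 of 758. Pck1, which supplies glycerol for triglyceride, had all of its 81 counts there. Adig (115 of 117), Acvr1c (48 of 54) and the progenitor factor Ebf2 (22 of 27) lay there as well. Leptin (Lep), the satiety hormone, had 12 counts, all in NK1-1.

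The 7 lists as a whole gave a mixed picture. Among genes with 20 or more counts, NK1-1 was the highest lesion for 7 of 12 genes of fatty acid uptake and triglyceride synthesis and for 7 of 11 of sugar uptake and fatty acid synthesis. It was the highest for 4 of 14 lipid droplet and lipolysis genes, 3 of 8 adipokines, 2 of 12 adipocyte transcription factors, 6 of 14 other mature fat cell markers and 2 of 8 brown fat genes. Summed over its list, fatty acid uptake and triglyceride synthesis reached 1969 CPM in NK1-1, against 559 to 975.5 CPM in the 6 other NK lesions and 378 to 1031 CPM in Ctrl lesions. The sum of the other mature fat cell markers was 975 CPM in NK1-1, 17.1 to 1107 CPM in the 6 other NK lesions, with NK1-3 above NK1-1, and 12.98 to 285 CPM in Ctrl lesions.

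Lpl, the lipase that frees fatty acids from blood lipoproteins, had 537 CPM in NK1-1, and its highest other lesion, NK2-4, had 305 CPM. The fatty acid synthase Fasn had 441 CPM in NK1-1 and up to 259 CPM elsewhere, and the desaturase Scd1 had 648 CPM there and 638 CPM in NK2-4. Agpat2, an enzyme of triglyceride synthesis that was chosen after its values were seen, had 322 CPM in NK1-1 and at most 120.5 CPM elsewhere. Other genes were higher in another lesion. Plin2, the droplet coat of most cell types, had 75.5 CPM in NK1-1 and up to 195.7 CPM elsewhere. Lipe, the hormone-sensitive lipase and a defining marker of the fat cell, had 29.0 CPM in NK1-1 and 42.4 CPM in KO1-2. Pparg, the master regulator of the fat cell, had 20 of its 207 counts in NK1-1 (3.17 CPM, against a maximum of 3.37 CPM in KO2-1).

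**Figure D3:**
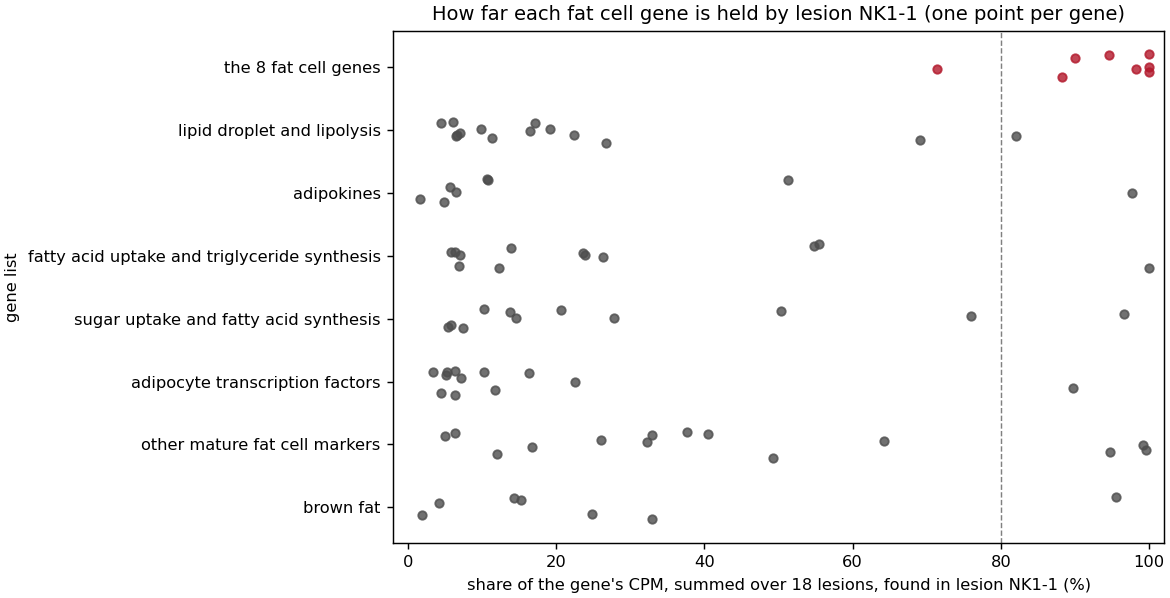
Share of each gene's CPM, summed over the 18 lesions, that lay in NK1-1 (x axis, percent), one point per gene with 20 or more counts, for the 8 fat cell genes (red) and 7 further lists (grey), with a dashed line at 80% and a gene of 2 lists drawn once. Of the 8 genes, 7 lie right of the line and Mlxipl lies at 71.4%, while most list genes lie left of it.

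Brown fat, which burns fat for heat, was read from 5 defining markers. Ucp1, the uncoupling protein of brown fat, had 0 counts in NK1-1 and 4 counts elsewhere, and Elovl3 also had 0 there. Cidea had 36 of 41 counts in NK1-1, Cox8b 19 of 21 and Otop1 7 of 7. The 5 summed to 9.82 CPM in NK1-1, against 0 to 2.39 CPM in the 6 other NK lesions and 0 to 0.623 CPM in Ctrl lesions. The wider brown fat list of 12 genes was not highest there, with 27.6 CPM in NK1-1, 2.09 to 38.3 CPM in the 6 other NK lesions and 2.72 to 26.4 CPM in Ctrl lesions. In it Prdm16 had 2.06 CPM in NK1-1 and 27.1 CPM in NK1-3. Of the 11 defining markers of the fat cell, 4 (Adipoq, Plin1, Cidec and Cfd) are among the 8 genes. The other 7, Lipe, Retn, Lep, Car3, Acvr1c, Slc7a10 and Adrb3, were all detected in NK1-1 and summed to 1058 CPM there, against 1.43 to 41.5 CPM in the 6 other NK lesions and 0.804 to 42.7 CPM in Ctrl lesions. These markers, too, were chosen with results of these data known.

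Some markers of other cells were also high in NK1-1 and others were low there, and their part in the result was not tested. The heart muscle list (13 genes, 1 at 0 in NK1-1) summed to 296.6 CPM there, 3.29 to 91.7 CPM in the 6 other NK lesions and 1.95 to 39.4 CPM in Ctrl lesions. Myh6, the myosin of atrial and ventricular muscle, had 299 of its 335 counts in NK1-1, and Myl7, the atrial light chain, 548 of 762. The skeletal muscle list was low but highest in NK1-1, at 6.18 CPM against 0 to 0.491 CPM in the 6 other NK lesions and 0 to 4.3 CPM in Ctrl lesions. All of it came from Ckm, the muscle creatine kinase, with 39 of its 45 counts there, while 4 of 5 defining markers were at 0. The airway epithelium list summed to 4587 CPM, which ranked 3 of 18 behind NK1-3 at 27980 CPM and a Ctrl lesion at 16170 CPM. In it Bpifa1, a secreted protein of upper airways and glands, had 6381 of 6396 counts in NK1-1. Scgb3a1 of the same list, chosen after its values were seen, had 4707 of 4839 counts there. The alveolar epithelium list was lowest of all in NK1-1, at 261 CPM against 396 to 3450 CPM in the 6 other NK lesions and 751.5 to 3807 CPM in Ctrl lesions. The capillary endothelium list, at 46.4 CPM, ranked 17 of 18, with 40.9 to 367 CPM in the 6 other NK lesions and 116.7 to 489 CPM in Ctrl lesions. The alveolar macrophage list lay in the middle, at 196 CPM and rank 8 of 18, with 58.0 to 504 CPM in the 6 other NK lesions and 73.3 to 542 CPM in Ctrl lesions. Of its 5 defining markers Marco, Ear1 and Siglecf were at 0, while the list gene Mrc1, a receptor of many tissue macrophages, was highest in NK1-1. NK1-1 thus combined high fat and heart muscle transcripts, and high Bpifa1 and Scgb3a1, with low alveolar epithelial transcripts, in 1 library. Fat progenitor genes gave 130.8 CPM there and ranked 13 of 18.

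**Figure D4:**
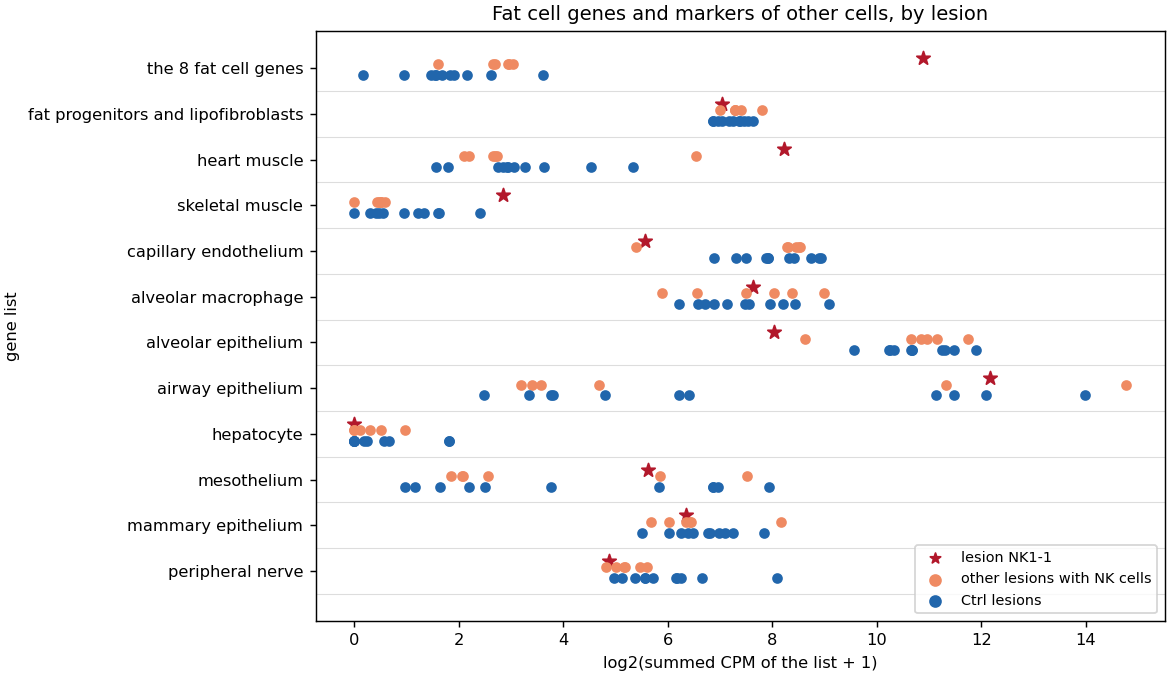
Summed CPM of the 8 fat cell genes and of 11 lists of other cells, as log2(summed CPM + 1), one point per lesion, with NK1-1 as a star, the 6 other NK lesions in orange above and the 11 Ctrl lesions in blue below. NK1-1 stands right of every other lesion for the fat cell genes, heart muscle and skeletal muscle (there from Ckm alone). It stands left of every other lesion for alveolar epithelium.

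The genes whose log2(CPM + 1) was most like that of Adipoq over the 18 lesions had all or nearly all counts in NK1-1. Besides Pck1, 4 genes had a Pearson correlation of 1.0 with it, namely 2010003K11Rik, Gp2, Tff2 and Tmem45b, followed by Ckmt2, Adig and Calml3 at 0.999 or above. With 17 lesions at 0, such a correlation says only that the counts lay in the same lesion. Most like Fabp4 were Gm14325 (0.965), Myh6 (0.941), Slc5a8 (0.934), 4930563E22Rik (0.926) and Acvr1c (0.923). These points share mice and libraries, and no p is given. Among the 8 themselves the correlation ran between 0.647, for Cidec with Mlxipl, and 1.0.

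NK1-1 was one of several lesions that held genes of their own. It had 90 genes with at least 80% of their CPM, NK1-3 had 111, KO3-2 had 64 and KO3-1 had 31, and the other lesions had 0 to 19 each. Genes with all of their counts in 1 lesion numbered 16 in NK1-1 and 0 to 9 in the others.

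In the 17 lesions without NK1-1, 5 of the 8 genes had counts, all of them low. There were 242 counts of Fabp4, 122 of Plin4, 121 of Cidec, 65 of Cyp2e1 and 61 of Mlxipl. Fabp4 reached a median of 0.816 CPM in the 2 other lesions of NK1 and 1.98 CPM in the 4 of NK2, beside 0.312 CPM in KO1, 1.04 CPM in KO2 and 1.86 CPM in KO3. For Cidec the highest of these lesions was KO3-2, at 4.87 CPM, and for Plin4 it was KO3-1, at 5.97 CPM. Neither of these 2 lesions of mouse KO3 was high for the other gene, with 0 Cidec counts in KO3-1 and 0 Plin4 counts in KO3-2. NK and Ctrl lesions overlapped for all 5 genes once NK1-1 was set aside.

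**Figure D5:**
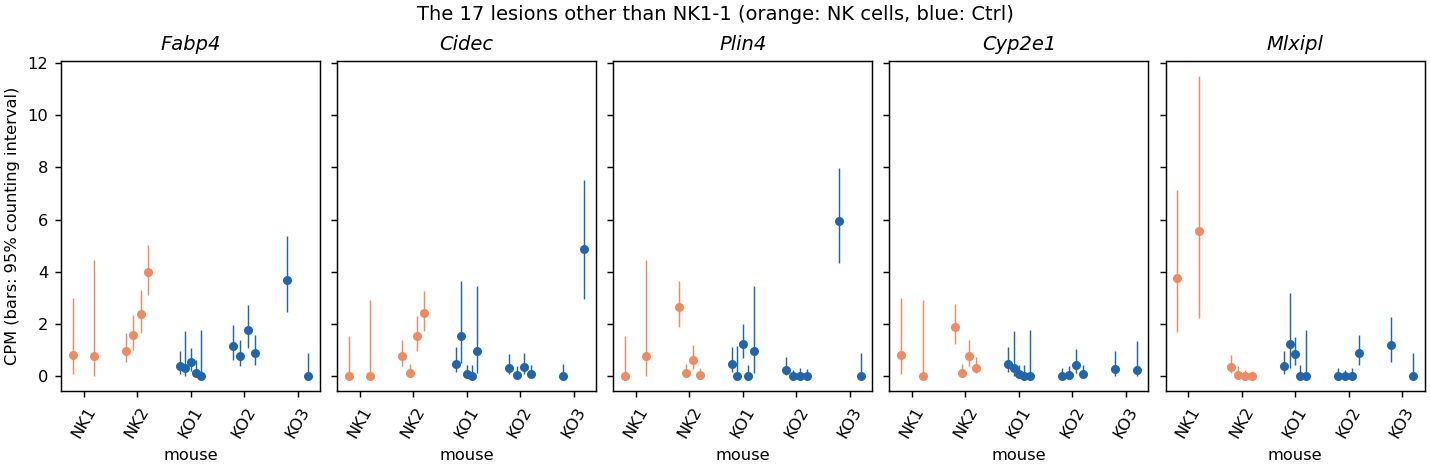
CPM of the 5 genes with counts outside NK1-1, by mouse, in the 17 other lesions, with 95% counting intervals (NK mice in orange on the left, Ctrl mice in blue on the right). The highest points are KO3-1 for Plin4 (5.97 CPM) and NK1-3 for Mlxipl (5.58 CPM), and the ranges of NK and Ctrl lesions overlap for each gene.

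Between treatments, counts were summed per mouse and fitted with edgeR's quasi-likelihood test over 16917 genes, with Benjamini-Hochberg adjustment. Of the 8 genes 5 passed the filter on low counts, and Adipoq, Plin1 and Cfd did not, since their counts lay in 1 mouse. Of the 5, Cyp2e1 no longer passed the filter when lesion NK1-1 was left out, while Plin4, Cidec, Fabp4 and Mlxipl still did. The log2 fold changes of NK over Ctrl mice were 8.97 ± 1.98 (SE) for Cyp2e1, 6.74 ± 1.81 for Cidec, 5.45 ± 1.46 for Fabp4, 4.51 ± 1.63 for Mlxipl and 4.38 ± 1.85 for Plin4. None of the 5 was called at an adjusted p of 0.05 (adjusted p = 0.9998 for each), beside 0% of all genes tested. At an unadjusted p under 0.05 stood Cidec, Cyp2e1, Fabp4 and Mlxipl, 4 of the 5, beside 2.52% of all genes. DESeq2 called Adipoq, Cfd, Cyp2e1 and Fabp4, beside 0.23% of all genes, and edgeR with no filter called all 8, beside 0.856%. The genes were chosen for their counts in lesion NK1-1, so these p-values and calls are a description only. Nothing is read from their shares beside those of all genes.

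Mouse by mouse the difference rested on NK1. Cyp2e1 was at 194 CPM in NK1 and 0.821 CPM in NK2, and at 0.195, 0.154 and 0.261 CPM in KO1, KO2 and KO3. Fabp4 was at 109.8 CPM in NK1 and 2.53 CPM in NK2, and at 0.362, 1.23 and 2.44 CPM in the 3 Ctrl mice. For these genes both NK mice lay above every Ctrl mouse, as did 7.94% of all tested genes. Plin4 was at 59.3 CPM in NK1 and 0.892 CPM in NK2, against 3.92 CPM in KO3. Without lesion NK1-1 the log2 fold change of NK over Ctrl was -1.24 for Plin4, 0.09 for Cidec, 0.39 for Fabp4 and 2.03 for Mlxipl, while Cyp2e1 no longer passed the filter and Adipoq, Plin1 and Cfd had 0 counts.

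The fat cell lists gave no called gene either. Of the 88 list genes 70 were tested, 0 were called, and 54 had a positive log2 fold change of NK over Ctrl, with a median of 0.63, beside 8172 of 16917 and a median of -0.03 for all tested genes. Without lesion NK1-1 the medians of 4 lists were at or below 0.092, and those of adipocyte transcription factors, brown fat and other mature fat cell markers were 0.15, 0.491 and 0.598.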

How the data were processed

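RNA of 18 lesions was sequenced after laser capture, with 2 ng of total RNA per library, per the labels' protocols. The tools named in the submitters' processing notes are STAR, RSEM 1.2.28, bcl2fastq 2.17 and DESeq2, with build mm10. Expected counts, as RSEM estimates them, make up the authors' deposited count table, which is unscaled and in which 6.898% of values were not whole. They were rounded to whole numbers. A second deposited table holds log2 values normalized by the authors, whose transformation no header or label states, and served as an alternative. There were 0 further columns of sample values. GENCODE M21 symbols matched 49326 identifiers, and GENCODE gave the GRCm38 coordinates.

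Counts were summed per mouse (2 NK, 3 Ctrl) and tested with edgeR 4.0.16 (TMM, quasi-likelihood F test, robust, minimum count 10, minimum total 15, R 4.3.3), with DESeq2 1.42.0 and limma 3.58.1 as alternatives. The biological coefficient of variation was 64.9%. The code was tested on simulated data. Replicates are mice, 2 against 3. The p-values set a difference against variation between these animals, estimated with information shared across genes. The sum of a mouse also carries the variation between its lesions. The genes named were the 8, the list genes with most counts or with at least 80% of counts in NK1-1, the leading genes of other cells there, and the 8 and 5 genes most like Adipoq and Fabp4, with Pearson correlation over genes of 50 or more counts. Otop1, Elovl3, Lipe, Slc7a10, Marco, Ear1 and Siglecf are named as defining markers, and Hdgfl2 and Gm43500 as overlapping genes. The 8 genes, the lists and the tests were chosen with earlier results of these data known.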

Additional observations from a re-analysis of the deposited data

Results flagged for a closer look

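Some quantities had 1 of the 7 NK lesions far from the rest, measured as its gap to the nearest lesion over the whole range. Lesion NK1-1 was the distant one for all 8 genes, with a gap of 1.0 of the range for Adipoq, Plin1 and Cfd, 0.973 for Plin4, 0.990 for Cidec, 0.994 for Cyp2e1, 0.982 for Fabp4 and 0.844 for Mlxipl. The genes were chosen for this, so nothing is read from it.

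Of the 18 summed lists 9 had such a lesion. Chance gives about 1 in 20 only for independent, normally distributed values, and unlogged sums of CPM need not be so distributed. The NK lesions came from 2 mice, and the lists were chosen with results of these data known and share lesions. Nothing is therefore read from this count. NK1-1 was the distant lesion for adipokines (0.585), fatty acid uptake and triglyceride synthesis (0.705), heart muscle (0.698) and skeletal muscle (0.920). The skeletal muscle sum there came from Ckm alone, with 8 genes of that list at 0. Lesion NK1-3 was the distant one for adipocyte transcription factors (0.723), fat progenitors and lipofibroblasts (0.569), airway epithelium (0.836) and mammary epithelium (0.849). Lesion NK1-2 was the distant one for mesothelium (0.698).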

How the results depend on the processing

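The count of called genes was 0 with edgeR, 39 with DESeq2 and 224 with no filter on low counts, and 0 to 4 without single mice. The 4 were called without mouse NK2, and 426 genes had an unadjusted p under 0.05 with edgeR and all mice. No paired analysis was possible because a number in NK1 and KO1 names different animals.

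Without lesion NK1-1 the log2 fold change of NK over Ctrl was -1.24 for Plin4, 0.087 for Cidec, 0.39 for Fabp4 and 2.03 for Mlxipl. Leaving out single mice, it ran between -0.74 and 6.43 for Plin4, 0.90 and 7.97 for Cidec, 2.03 and 9.96 for Cyp2e1, 0.94 and 6.42 for Fabp4 and -2.21 and 5.52 for Mlxipl, with the lowest value without mouse NK1 in each case. In the deposited normalized table it was 1.02 for Plin4, 1.72 for Cidec, 2.51 for Cyp2e1, 1.54 for Fabp4 and 1.65 for Mlxipl. As a mean over lesions of log2(CPM + 1) it was 0.93, 1.12, 1.67, 1.498 and 1.33 for the same 5 genes.

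List medians without NK1-1 were 0.026 for lipid droplet and lipolysis, -0.53 for adipokines, 0.028 for fatty acid uptake and triglyceride synthesis, 0.092 for sugar uptake and fatty acid synthesis, 0.15 for adipocyte transcription factors, 0.598 for other mature fat cell markers and 0.491 for brown fat. Without single mice they ran between 0.23 and 0.94 for lipid droplet and lipolysis, -0.29 and 0.57 for adipokines, -0.15 and 1.58 for fatty acid uptake and triglyceride synthesis, 0.13 and 1.13 for sugar uptake and fatty acid synthesis, -0.06 and 0.40 for adipocyte transcription factors, -1.09 and 2.73 for other mature fat cell markers and -0.61 and 1.59 for brown fat. The share in NK1-1 on raw counts was 83.6% for Plin4, 92.6% for Cidec, 96.9% for Cyp2e1, 82.6% for Fabp4 and 78.8% for Mlxipl.

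Of the 8 genes most like Adipoq 5 were also named by Spearman correlation, and of the 5 most like Fabp4 1 was, and 1 with a pseudocount of 0.1. The causes of these changes were not tested. Of all alternatives, 40 of 59 for single genes and 35 of 49 for lists were labelled the same as the main fit. The label is coarse and does not follow the SE, since Plin4 at 6.43 without mouse KO3 counted as the same as 4.38. With 1 library per lesion and 3 genes at 0 outside NK1-1, depth sets only lower bounds for Adipoq, Plin1 and Cfd.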

Other observations

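Of the other mature fat cell markers in lesion NK1-3, the carboxylesterase Ces1d alone gave 901 CPM, while Adipoq, Plin1 and Cfd had 0 counts. The airway list of that lesion summed to 27980 CPM. Among the transcription factors of fat cells, Cebpa had 67.3 CPM in NK1-1 and 144 CPM in NK1-3, and Srebf1 had 33.9 CPM in NK1-1 and 193 CPM in NK1-3.

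The scavenger receptor Mrc1, carried by many tissue macrophages, had 145.8 CPM in NK1-1 and at most 51.03 CPM in any other lesion.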
